A study of Amphiura filiformis with 28 samples.

Results

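Tyy1 is the gene model of the brittle star Amphiura filiformis whose predicted protein best matches YY1, and it carries a C2H2 zinc-finger domain in the annotation. It was taken by its identifier, AFI31353, and not by its expression, so it is 1 gene of the 30090 in the explant table and of the 28263 in the time-course table. The gene lies on chromosome 1 of the study's own assembly, between positions 17248405 and 17258383 on the minus strand, a span of 9979 bp. Poly(A) RNA was measured during arm regeneration in 28 samples, 8 of a time course in whole animals and 20 of an explant experiment. The explant experiment asks which genes differ between a wound that regenerates and one that only heals.

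In vertebrates and flies, YY1 is a zinc-finger protein that binds DNA and either represses or activates its targets, depending on the partners it meets. Among those partners are histone deacetylases, histone acetyltransferases and Polycomb proteins, and mammalian YY1 also helps to bring enhancers and promoters together. It is expressed in most mammalian tissues and is required for early embryonic development in the mouse. None of these roles was measured here, and the identity of the brittle star gene rests on sequence matching by the study.

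All samples were labelled wild type and untreated. An explant is an arm piece severed from the animal and cut at both ends. Its distal end regenerates, its proximal end closes the wound without regrowth, and its medial piece, away from both cuts, served as the control. Distal, medial and proximal pieces were collected 3 and 5 days post amputation (dpa), with 4, 4 and 3 samples at 3 dpa and 3 samples of each piece at 5 dpa, and each sample was a batch of many explants. In the time course each stage was 1 sample that pooled regenerates of different individuals. These stages were 48 and 72 h post amputation (hpa), stages 3, 4 and 5, and the proximal and distal parts of arms at 50% differentiation (50% P and 50% D), beside a non-regenerating control. GEO labels the tissue of that control as a regenerating explant, whereas the study's methods describe a mature arm segment. The tissue taken differed between stages: the last segment at the cut at 48 and 72 hpa, the regenerating tissue at stages 3 to 5, and several segments at 50%.

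Values are TPM, a measure of transcript abundance per length and library size, scaled between samples by the trimmed mean of M-values (TMM), a method that assumes most genes do not change. The sum over all genes of a sample therefore differs between samples: it ran from 1024512 to 2976429 in explants and from 551379 to 1866500 in the time course, and between 1990 and 9022 genes per sample stood at 0. Read depth cannot be recovered from these values and is unknown here. In such bulk samples, fewer cells of a type and less RNA per cell cannot be told apart. The 2 tables were normalized separately, so levels of one are set beside those of the other but not tested against them.

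In 3 dpa explants Tyy1 was present at a similar level in all 3 pieces. In distal pieces it stood at 30.7, 23.3, 25.0 and 19.0 TMM-normalized TPM in replicates 1 to 4, a mean of 24.5 ± 4.83 (SD, n = 4). In medial pieces the corresponding values were 20.4, 22.2, 21.5 and 18.1, a mean of 20.6 ± 1.77 (SD, n = 4). In proximal pieces replicates 2, 3 and 4 held 22.9, 20.9 and 18.2, a mean of 20.7 ± 2.38 (SD, n = 3). The 3 sets overlapped: distal replicate 1 was the highest sample of the experiment, but distal replicate 4 was below most medial and proximal samples. Replicate 4 was the lowest of its group in each of the 3 pieces, both by value and by the rank of Tyy1 within the sample. Among samples of the same number at 3 dpa, distal exceeded medial in 4 of 4 and proximal in 3 of 3. This did not hold at 5 dpa, where distal exceeded medial in 1 of 3, and in 0 of 3 by rank. Distal exceeded proximal there in 2 of 2 as deposited and in 0 of 2 on the equal-sum scale. How many other genes had such orders was not counted. The methods say that the explants were dissected into proximal, medial and distal sections, but no source says that a number marks a shared batch. The main tests below treated the groups as independent, and a fit with the number as a block is given in the closing section. The same order, replicate 4 lowest in each piece at 3 dpa, was seen in 1147 of the 21442 genes tested, or 5.35%.

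At 5 dpa the pieces again differed little. Distal replicates 1, 2 and 5 held 27.8, 23.6 and 23.4 TMM-normalized TPM, a mean of 24.9 ± 2.50 (SD, n = 3). Medial replicates 1, 2 and 5 held 25.7, 28.0 and 23.5, a mean of 25.7 ± 2.24 (SD, n = 3). Proximal replicates 1, 4 and 5 held 26.8, 23.8 and 20.5, a mean of 23.7 ± 3.14 (SD, n = 3). The ranges of the 3 pieces overlapped, and the order of the means, medial before distal before proximal, was not that of 3 dpa. Over all 20 samples Tyy1 ran from 18.1 to 30.7 around a median of 23.3, a 1.69-fold range. Of the 11 samples taken at 3 dpa, 2 lay above that median, both distal, and of the 9 taken at 5 dpa, 8 did.

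**Figure D1:**
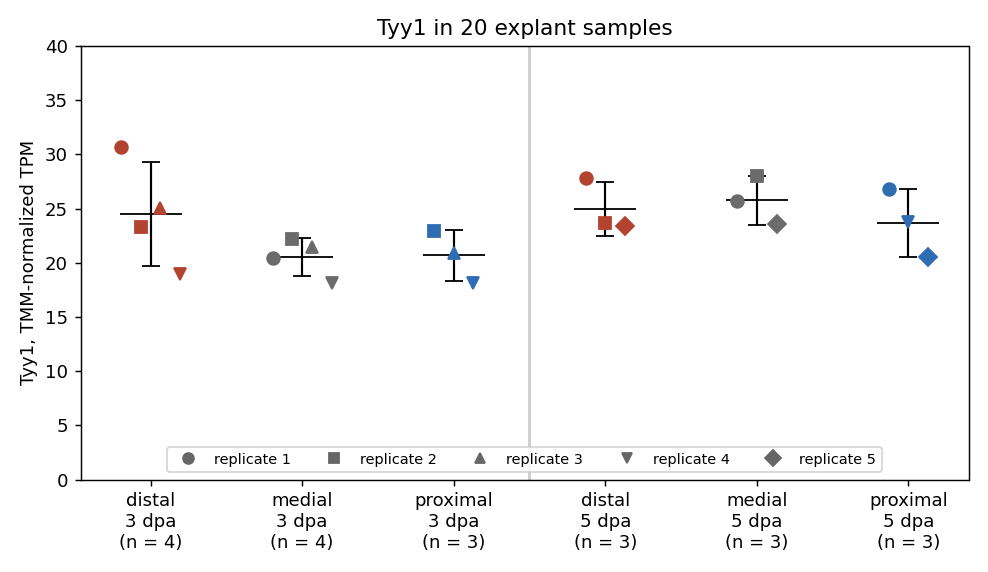
Tyy1 in the explants, as TMM-normalized TPM (linear axis from 0). Each symbol is 1 sample, its shape gives the replicate number, and the bars show the group mean ± SD. All 20 samples lie between 18.1 and 30.7, and the groups of each day overlap.

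No comparison between pieces passed the threshold of an adjusted p under 0.05 with an absolute log2 fold change over 1, and none of the 9 contrasts between 2 groups had an unadjusted p under 0.05 in limma on the values as deposited (lowest 0.059). Distal against medial pieces differed by a log2 fold change of 0.23 at 3 dpa (SE 0.14, 95% confidence interval −0.07 to 0.53, limma adjusted p = 0.41), while 1.98% of all tested genes were called in that contrast. At 5 dpa the same contrast gave −0.04 (SE 0.17, interval −0.39 to 0.30, limma adjusted p = 0.90), in the contrast with the largest share of genes called, 5.47%. Thus Tyy1 was not among the genes called in either of the comparisons of the regenerating end with its control.

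Proximal against medial pieces, the wound that heals without regrowth, gave 0.01 at 3 dpa (SE 0.15, interval −0.32 to 0.33, limma adjusted p = 0.99), where 0.448% of genes were called. At 5 dpa it gave −0.12 (SE 0.17, interval −0.47 to 0.23, limma adjusted p = 0.72), where 1.95% were called. Distal against proximal pieces, the ends compared with each other, gave 0.22 at 3 dpa (interval −0.10 to 0.55, limma adjusted p = 0.77) and 0.08 at 5 dpa (interval −0.27 to 0.42, limma adjusted p = 0.90), with 0.322% and 1.41% of genes called. As deposited, the 95% interval of all 9 contrasts lay inside a 2-fold change in either direction, between −0.47 and 0.64 on the log2 scale. With samples rescaled to equal sums this held for 8 of the 9: proximal against medial at 5 dpa became −0.53 (SE 0.23, interval −1.02 to −0.04, unadjusted p = 0.036, limma adjusted p = 0.22), 0.27 below the median of all genes on that scale. The change of the distal against medial difference from 3 to 5 dpa was −0.27 (SE 0.22, limma adjusted p = 0.83; 0.0886% of genes called), and that of the proximal against medial difference −0.13 (SE 0.23, limma adjusted p = 0.97; 0% called).

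The largest of the 9 differences as deposited was between days. Medial pieces held more Tyy1 at 5 dpa than at 3 dpa in every sample, 23.5 to 28.0 against 18.1 to 22.2, so the groups did not overlap, an order in which 3.77% of tested genes stood. On the equal-sum scale the groups overlapped, 16.3 to 19.2 at 3 dpa and 17.3 to 23.7 at 5 dpa. As deposited the log2 fold change was 0.31 (SE 0.15, 95% interval −0.01 to 0.64), or 1.24-fold. The two-sided exact permutation p was 0.0286, the smallest this design allows, and 0.26 after Benjamini-Hochberg adjustment over the 9 contrasts, and the limma adjusted p was 0.44. Only 1 gene in all, 0.00466%, was called in that contrast. In distal pieces the change with day was 0.04 (interval −0.28 to 0.37, limma adjusted p = 0.93), where 0.835% were called, and in proximal pieces 0.19 (interval −0.16 to 0.53, limma adjusted p = 0.62), where 0.0979% were. Nothing in the sources says that replicates came from separate cultures on separate occasions, so these p-values measure only the spread between batches of explants.

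**Figure D2:**
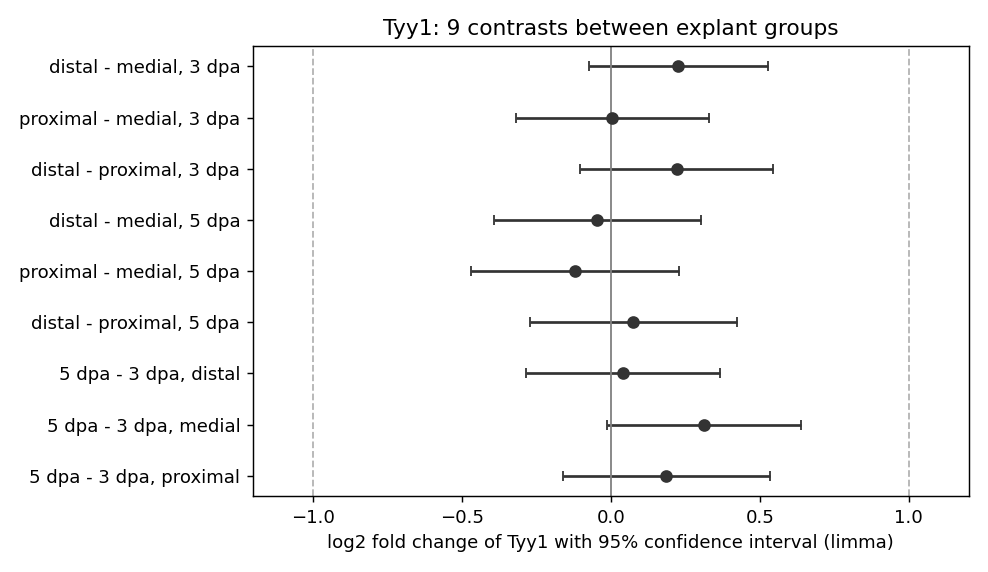
Log2 fold change of Tyy1 in the 9 contrasts between explant groups, on values as deposited (points) with 95% confidence intervals from limma (bars). Dashed lines mark a 2-fold change. Every interval lies inside them, and the medial change from 3 to 5 dpa, 0.31, is the largest.

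Tyy1 varied less than most genes. Its pooled SD within groups was 0.18 on the log2 scale, 1.13-fold, and 90.6% of the 21442 tested genes had a larger one, their median being 0.29. The highest and lowest of its 6 group means were 0.31 apart on the log2 scale, and 91.4% of tested genes had a wider range, with a median of 0.64. Among the 5162 genes with a mean of at least 10 TMM-normalized TPM, 95.4% had a wider range of group means and 90.0% a larger SD. Within every explant sample Tyy1 ranked between place 2141 and place 3168 of the 30090 genes, so that 89.5% to 92.9% of genes had a lower value. Among the 37 chromosome 1 genes the study lists as transcription factors, Tyy1 included, it ranked 3 in all 20 samples. Those above it were Atf4, a bZIP factor of the stress response, with 561 to 1258, and Unchar_13494, a gene with a homeobox domain, with 52.8 to 119.

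No contrast of Tyy1 passed the threshold on any scale tried, but the direction of some differences depended on the scale. When the samples were rescaled to equal sums, that is, to TPM without the TMM factor, Tyy1 ran from 8.00 to 24.0, and the lowest sample was proximal replicate 4 at 5 dpa, whose values have the largest sum. On that scale the median of all tested genes itself moved, by −0.29 in distal and −0.33 in proximal pieces from 3 to 5 dpa and by −0.26 between proximal and medial pieces at 5 dpa. The change of Tyy1 with day then became −0.34 in distal and −0.28 in proximal pieces, which lay −0.04 and 0.05 from that median. In medial pieces it was 0.15, where the median of all genes was −0.14. Relative to Tbp, the TATA-binding protein gene of the general transcription machinery, Tyy1 stood at 1.37 to 2.65 in the 20 samples. At 3 dpa the ratio ran from 1.41 to 2.32 in distal, from 1.64 to 2.33 in medial and from 1.37 to 1.79 in proximal pieces. At 5 dpa it ran from 1.60 to 2.05, from 1.53 to 2.65 and from 1.64 to 2.09, so the groups overlapped on both days.

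In the time course, which held a non-regenerating control and later stages that the explants lacked, Tyy1 ran over a wider range. From 72 hpa to stage 3, the samples nearest in time to the explants, the ratio was 0.85 as deposited and 0.28 on the equal-sum scale. The control held 3.49 TMM-normalized TPM. The wound segment held 8.93 at 48 hpa and 9.14 at 72 hpa. Stage 3 held 7.74, stage 4 held 12.8 and stage 5 held 13.7. At 50% differentiation the proximal part held 12.0 and the distal part 16.5. The control was thus the lowest sample and the distal part of the oldest regenerate the highest, a 4.72-fold range. With 1 sample per stage no spread between replicates is known, and no test was made. The largest step between neighbouring stages was the first, 2.56-fold from the control to 48 hpa, followed by 1.66-fold from stage 3 to stage 4. From 48 to 72 hpa the ratio was 1.02 and from stage 4 to stage 5 it was 1.07 as deposited. On the equal-sum scale these ratios were 1.26 and 1.77. The only measure of spread at hand is the 1.13-fold SD of Tyy1 between explant replicates. It comes from another experiment and describes single samples, not ratios of 2 samples, so it cannot show which steps exceed the spread.

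The height of the steps depended on the scaling, and the place of the control did not. On the equal-sum scale the control held 2.01, 48 hpa 11.9, 72 hpa 14.9, stage 3 4.15, stage 4 8.95, stage 5 15.8, 50% D 16.8 and 50% P 21.7, a 10.8-fold range. The median of all genes moved on that scale as well, by 0.70 at 48 hpa, 0.88 at 72 hpa and 0.96 at 50% P over the control. By the median of ratios, which sets the sample scale from genes above 0 everywhere, the values ran from 3.93 in the control over 7.62 at stage 3 to 15.1 at 50% D. On all 3 scales the control was lowest and stage 3 second lowest. The highest sample was 50% D as deposited and by the median of ratios, and 50% P on the equal-sum scale.

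**Figure D3:**
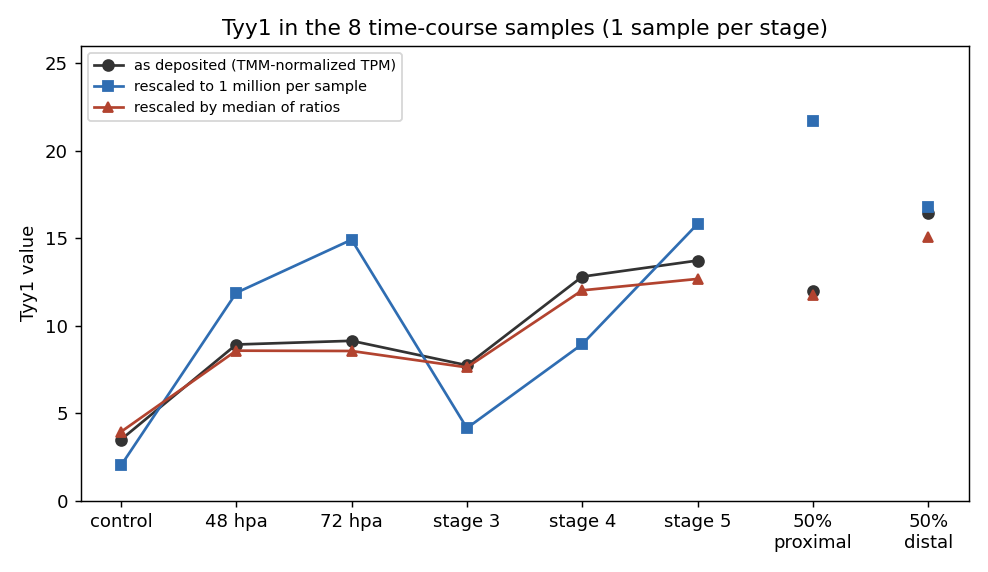
Tyy1 in the 8 time-course samples under 3 scalings (linear axis from 0). Each point is the only sample of its stage, and lines join successive stages up to stage 5. The control is lowest on each scale, between 2.01 and 3.93, and the dip at stage 3 is deepest on the equal-sum scale, at 4.15.

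A control that is the lowest sample is common among these genes: of the 15432 genes that reached a value of 1 somewhere, 32.4% were lowest in the control as deposited, 42.9% on the equal-sum scale and 28.4% by the median of ratios. The range of Tyy1 over the 8 samples, 1.96 on the log2 scale, was exceeded by 29.1% of these genes, against a median of 1.47. The place of Tyy1 within each sample, which does not depend on a scaling factor, gave the same order at its low end. In the control 81.4% of genes were below it and it ranked 5265 of 28263. At 48 hpa, 72 hpa and stage 3 the share was 89.9%, 90.3% and 89.7%. It was 92.6% at stage 4, 93.2% at stage 5, 93.0% at 50% P and 94.0% at 50% D, where it ranked 1698. The 20 explant samples, medial pieces included, lay between 89.5% and 92.9%, nearer to the regenerating stages than to the single control sample. The 2 tables hold different numbers of genes, 30090 for explants and 28263 for the time course. The libraries of the 2 experiments were also prepared and sequenced separately, so what sets the explants apart from the control was not tested. Genes at 0 count as below, and their number differed between samples.

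**Figure D4:**
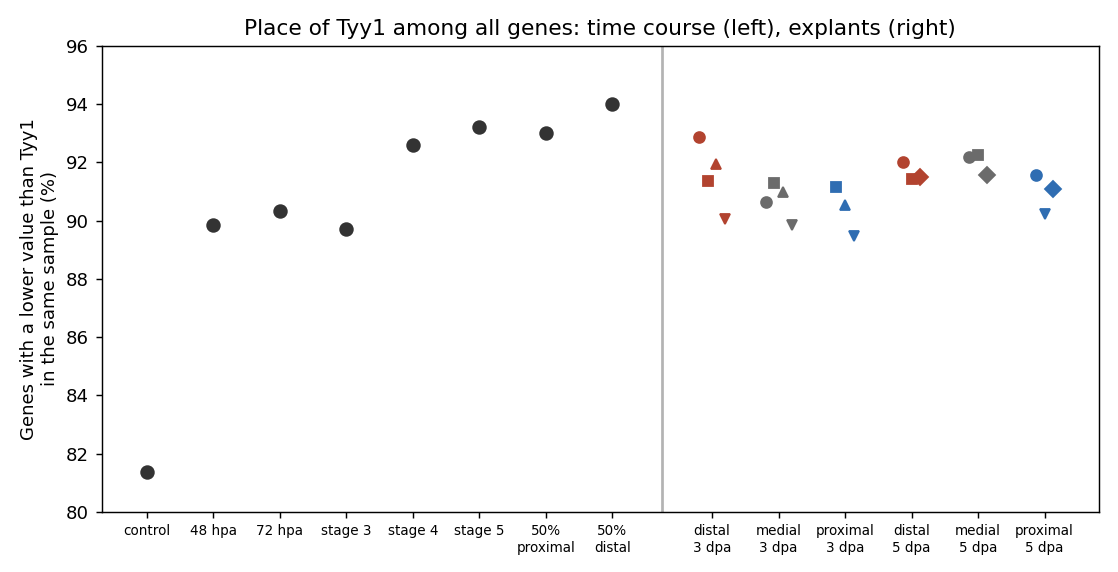
Share of genes with a lower value than Tyy1 within each sample, in percent (the axis starts at 80%). Black points are the time course, 1 sample per stage, and coloured symbols the explant replicates (red distal, grey medial, blue proximal, shape as the replicate number). The control stands at 81.4%, and all other samples lie between 89.5% and 94.0%.

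Among the 36 chromosome 1 transcription factors of the time-course table, Tyy1 had rank 3 in 6 of the 8 samples and rank 4 in the control and at stage 3. In the control Thap1, a THAP-domain factor, stood above it, and at stage 3 Tbp did. The ratio of Tyy1 to Tbp was 1.09 for the control, 1.64 and 1.80 in the wound segments of 48 and 72 hpa, 0.753 at stage 3, 1.63 at stage 4, 1.81 at stage 5, 1.94 at 50% P and 2.27 at 50% D. By this measure stage 3 and not the control was lowest, and Tbp had its own maximum there, 10.3 against 3.20 in the control.

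Other genes of chromosome 1 were set beside Tyy1 by lists of related function. The first held 14 chromatin factors and co-repressors of the kind YY1 works with in other animals, of which 13 passed the filter in explants. At 3 dpa none of the 13 was called between distal and medial pieces in limma (1 had an unadjusted p under 0.05, as did 20.8% of all genes), with a median log2 fold change of 0.09 against 0.01 for all genes. At 5 dpa 1 of the 13 was called, against 3.42% of all genes called as higher: Phf14-2, which matches a PHD-finger chromatin protein, rose by 1.08 (SE 0.27, limma adjusted p = 0.0114). The median of the list was then 0.30 (all genes 0.01). On the equal-sum scale these were 0.80 for Phf14-2, below the fold threshold, and 0.13 for the list. Hdac3, the catalytic subunit of a histone deacetylase co-repressor complex in mammals, averaged 4.46 ± 1.06 in distal and 2.72 ± 0.424 in medial pieces at 3 dpa (SD, n = 4 each), a log2 fold change of 0.54 that did not pass (SE 0.20, limma adjusted p = 0.12). Kat5, an acetyltransferase, gave 0.05 (SE 0.18, limma adjusted p = 0.92), and Aebp2, a partner of Polycomb repressive complex 2, 0.23 (SE 0.21, limma adjusted p = 0.61). From 3 to 5 dpa in medial pieces, where Tyy1 had its largest difference, 3 of the 13 had a positive log2 fold change, against 47.5% of all genes, and their median was −0.30 (−0.41 on the equal-sum scale), with none called (4 had an unadjusted p under 0.05, as did 11.5% of all genes).

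In the time course 12 of the 14 chromatin factors reached a value of 1, and 7 of them were lowest in the control, 8 on the equal-sum scale and 6 by the median of ratios. Hdac3 began at 0.303 in the control and held 1.08 (48 hpa), 1.18 (72 hpa), 0.748 at stage 3, 1.01 at stage 4, 1.42 at stage 5, 0.861 at 50% P and 1.40 at 50% D. Like Tyy1 it was lowest in the control with a dip at stage 3, at a much lower level per length. Aebp2 was listed at 0 in the control and held 0.738 to 1.86 in the other samples. Paf1, a subunit of an RNA polymerase elongation complex in yeast and animals, went the other way as deposited, from 119.6 in the control to 64.5 at stage 4. That direction depended on the scale, since the correlation of Paf1 with Tyy1 was −0.96 as deposited and 0.58 on the equal-sum scale.

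The second list held 7 genes of the general transcription machinery, among them Tbp and subunits of RNA polymerases. In explants all 7 had a positive log2 fold change in distal against medial pieces on both days, with medians of 0.57 at 3 dpa and 0.54 at 5 dpa against 0.23 and −0.04 for Tyy1; on the equal-sum scale 6 of the 7 were positive at 5 dpa. None passed both criteria in limma. By an adjusted p under 0.05 alone, with no demand on the fold, 4 of the 7 were higher in distal pieces at 3 dpa, as were 5.04% of all genes, and 3 at 5 dpa, as were 8.4%. Rpab1, a subunit shared by the RNA polymerases, gave 0.73 (SE 0.16, limma adjusted p = 0.00612) at 3 dpa and 0.84 (SE 0.18, limma adjusted p = 0.00432) at 5 dpa, below the fold threshold. Over the stages 6 of the 7 were lowest in the control as deposited, all 7 on the equal-sum scale and 4 by the median of ratios.

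The third list held 8 genes of DNA replication, repair and division, with the purine synthesis gene Pur9 counted among them. Of the 8, 7 passed the filter in explants. Like the other lists it was chosen with earlier results of these data known, so its shares are descriptive and give no independent support. Psf1, a subunit of the GINS complex of the replicative helicase, had the largest difference of the 7 between distal and medial pieces at 5 dpa: it averaged 22.6 ± 5.42 in distal and 4.25 ± 0.962 in medial pieces (SD, n = 3 each). Its log2 fold change was 2.16, and it was called with Xrcc3, a repair gene (1.07), and Pur9, a gene of purine synthesis (1.63), so 3 of 7 rose where 3.42% of all genes did. On the equal-sum scale these were 1.92, 0.82 and 1.41. At 3 dpa Pur9 alone of the 7 was called, where 1.7% of all genes rose, with 1.35 (limma adjusted p = 1.63e-05). Over the stages Psf1 had its maximum at stage 4, 38.6 against 7.65 in the control, whereas Tyy1 went on from 12.8 at stage 4 to 16.5 at 50% D. As deposited, Xrcc3 (2.78) and Sas6-2 (1.47), 2 of the 6 of this list that reached 1, had their maximum at 50% D as Tyy1 did. The same held for 7.9% of all 15432 genes that reached 1. By the median of ratios 1 of the 6 had its maximum there, as did 6.24% of all genes.

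Of the other 36 chromosome 1 transcription factors, 26 passed the filter. Among the 36, Rcor3-1, Rcor3-2, Mysm1, Aebp2, Tbp and Top3a also belong to a list above, so the lists are not separate sets. Between distal and medial pieces 1 of the 26 was called at 3 dpa, where 1.7% of all genes were called as higher: Lyar, a zinc-finger nucleolar protein linked to cell growth in mammals, which rose by 1.26 (SE 0.15, limma adjusted p = 4.01e-05). At 5 dpa none passed both criteria (6 had an unadjusted p under 0.05, as did 28.1% of all genes), and Lyar gave 0.91 (SE 0.18, limma adjusted p = 0.00219). The median over the 26 was 0.16 at 3 dpa and 0.13 at 5 dpa, or 0.01 at 5 dpa on the equal-sum scale. Among the stages 13 of the 19 transcription factors that reached a value of 1 were lowest in the control, 15 on the equal-sum scale and 12 by the median of ratios.

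**Figure D5:**
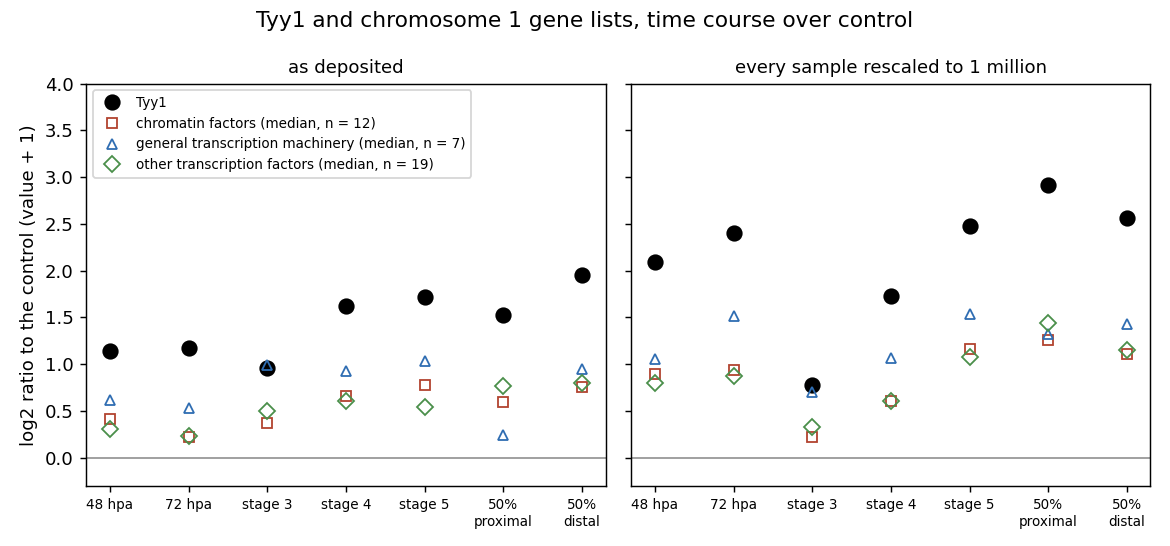
Log2 ratio to the control, on values plus 1, of Tyy1 (black points) and the median of 3 chromosome 1 lists (open symbols) at each time-course stage, as deposited (left) and on the equal-sum scale (right). Tyy1 runs from 0.96 at stage 3 to 1.96 at 50% D on the left and from 0.77 to 2.92 on the right. The median of the 12 chromatin factors stays between 0.22 and 0.78 on the left. The lists share some genes.

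The 6 gene models within 100000 bp of Tyy1 differed from it and from each other. The nearest, the uncharacterised Unchar_13397, ends 4556 bp from it, and F177a begins 8508 bp away on the other side, on the same strand. Diexf, 66624 bp away, matches a protein of ribosomal RNA processing and was the only neighbour called between distal and medial pieces, with 1.10 at 3 dpa (SE 0.19, limma adjusted p = 0.00388) and 1.14 at 5 dpa (SE 0.25, limma adjusted p = 0.00595), or 0.89 at 5 dpa on the equal-sum scale. Of all tested genes 1.7% were called as higher at 3 dpa and 3.42% at 5 dpa. Diexf averaged 7.89 ± 0.749 in distal and 3.16 ± 0.501 in medial pieces at 3 dpa (SD, n = 4 each), and these groups did not overlap, as in 10.1% of tested genes that were higher in distal pieces. In the time course Diexf was lowest in the control (0.912) and highest at stage 4 (5.67). Mcatl-2, which lies 79879 bp away, ran against Tyy1, from 5.77 in the control to 0.159 at stage 5. Over the 20 explant samples the median correlation of the 6 neighbours with Tyy1 was −0.25, and over the time course that of the 5 that reached a value of 1 was −0.34, or 0.37 on the equal-sum scale.

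The genes whose pattern was most like that of Tyy1 were sought among the named genes of chromosome 1 by Pearson's r on log2 values plus 1. Over the 20 explant samples the 5 highest of 540 were Nduba (r = 0.75), a subunit of mitochondrial complex I, Cript (0.68), Kri1 (0.60), a ribosome biogenesis factor in yeast, Pfd5 (0.60), a prefoldin subunit, and Ech1-2 (0.58). Spearman's rho for these was 0.81, 0.70, 0.62, 0.66 and 0.61. Of all 18951 genes compared, 284 had a higher r than the fifth, up to 0.83. Since Tyy1 moved only 1.69-fold over these samples, and all points share the scaling of their sample, these values describe the small common variation of 20 libraries. None of the 5 was still among the first 5 on the equal-sum scale, where the median r over all genes was 0.51, against −0.01 as deposited.

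Over the 8 time-course samples the 5 highest of 422 included Ide (r = 0.97), an insulin-degrading protease in mammals, Spcs3 (0.97), a signal peptidase subunit, Kdm4c-1 (0.96), which matches a histone demethylase, and Hexd (0.96), a hexosaminidase. The rho of these 4 was 0.95, 0.98, 0.90 and 0.98. Spcs3 ran from 15.7 to 45.3, while Ide, Kdm4c-1 and Hexd were low, at no more than 1.41, 1.27 and 1.94. Of the 15432 genes compared, 82 had a higher r than the fifth, and 3 of the 5 were still among the first 5 on the equal-sum scale. The median r over all genes was 0.06 as deposited and 0.57 rescaled. Kdm4c-1 is also 1 of the chromatin factors above, whose median r was 0.72 over the time course and −0.14 over the explants. The likeness between Tyy1 and that list seen across the stages was thus not seen across the explants, and the difference between these medians was not tested.

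The sums of collagen and of muscle markers were higher in the first samples of the time course than in the later ones as deposited. Neural and ciliated markers had other orders. The 2 collagen genes summed to 24.5 TMM-normalized TPM in the control, to 8.38 in the 48 hpa sample and to 7.20 in that of 72 hpa, and lay between 0.900 and 4.45 from stage 3 on. The 3 muscle genes had a sum of 2.68 in the control, 3.50 in the 48 hpa and 2.58 in the 72 hpa sample, and of 0.415 to 0.995 in the later stages. In the control 2.17 of that sum was Actc-13. Titin-35 held 0.511 in the control and 0.558 at 50% P, and Actc-14 stood at 0 in the control and was highest at 50% D (0.346). On the equal-sum scale the muscle sum was 1.55 in the control and 1.80 at 50% P. The control thus had the least Tyy1 and the most collagen RNA, although on the equal-sum scale its collagen sum, 14.1, was closer to that at 48 hpa (11.2) and 72 hpa (11.8). The 5 genes of ciliated cells summed to 11.2 in the control, 6.16 and 5.94 at 48 and 72 hpa, 12.0 to 15.0 at stages 3 to 5, 7.14 at 50% P and 12.6 at 50% D. The 3 neural genes summed to 2.48 in the control, 6.38 and 6.49 at 48 and 72 hpa, 2.18 to 3.04 at stages 3 to 5, 14.6 at 50% P and 4.13 at 50% D. The part of such differences in tissue in the course of Tyy1 was not tested. In explants both collagen genes fell in distal against medial pieces at 5 dpa, Cola1 by 1.03 and Coca1-3 by 1.22 on the log2 scale, as did 2.05% of all genes, in the contrast where Tyy1 gave −0.04. From 3 to 5 dpa in medial pieces, where Tyy1 differed most, the collagen sum was 53.8 to 62.9 at 3 dpa and 35.3 to 67.5 at 5 dpa. None of the 3 neural genes or the 5 genes of ciliated cells was called in the distal or proximal against medial contrasts. Between 0.448% and 5.47% of all genes were called there. In distal against medial pieces at 5 dpa, 0 neural and 3 ciliated genes had an unadjusted limma p under 0.05, as did 28.1% of all genes. All 5 ciliated genes were positive there, with a median of 0.50, or 4 with 0.33 on the equal-sum scale. By an adjusted p under 0.05 alone 1 of the 5 was higher, as were 8.4% of all genes. Elav4, a neuronal RNA-binding protein, was present in all explant samples and held 2.1 to 14.4 in the time course. Sc5a7, a choline transporter, and Syt17 passed the filter in explants but stood near or at 0 in the time course. The neural sum of the time course was thus almost all Elav4.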

How the data were processed

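Poly(A) RNA was sequenced from 20 explant and 8 time-course samples. The authors quantified transcripts with kallisto 0.48.0 against their own gene models and scaled TPM between samples by TMM; the deposited values are this normalized signal, in TPM units, without counts. The study's methods state the TMM step for the time course, and the file name gives it for explants. No column was left unmapped (0).

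Explants were fitted with limma 3.58.1 (R 4.3.3, intensity trend) on log2(value + 1) for the 21442 genes that reached 1 in 3 or more samples, 6 groups, 14 residual degrees of freedom. The Benjamini-Hochberg method was applied over all genes, and calls needed an adjusted p below 0.05 with a change of over 2-fold, as in the study, whose own count model needs counts. Two-sided exact permutation tests used log2(value + 1) of Tyy1. The script was tested on simulated data. Other tables and plots were made with Python 3.11.15. Fold changes on log2(value + 1) understate changes of low genes.

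Named genes were Tyy1, members of the lists (chromatin factors, general transcription machinery, division genes, chromosome 1 transcription factors, neighbours and cell type markers) and, per experiment, the 5 named chromosome 1 genes with the highest correlation, of which 1 in the time course is not reported here. Tyy1 and the lists were chosen with earlier results of these data known. Names are best protein matches given by the study. Alternatives were another pseudocount, filters, scalings, fits of the groups compared, no trend, a replicate block and leaving out each sample.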

Additional observations from a re-analysis of the deposited data

Results flagged for a closer look

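In groups of 4 samples, a sample was singled out when its gap to the nearest other exceeded Dixon's 95% critical value, which chance gives in about 1 of 20 groups. Neither Tyy1 group of 4 held such a sample by any of 4 measures. Of 48 groups of the other named genes, 4 did, all in distal pieces at 3 dpa: Paf1 with 194.6, Phf14-2 with 4.94, Coca1-3 with 28.4 and Rcor3-1 with 5.25 TMM-normalized TPM.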

How the results depend on the processing

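None of the 183 alternatives for the 11 explant contrasts brought Tyy1 past the threshold (lowest limma adjusted p 0.22, largest absolute log2 fold change 0.53). For each contrast 1 of these alternatives was a call by adjusted p alone on the main fit, and not another fit. Directions turned only in contrasts whose difference as deposited was no more than 0.19 on the log2 scale, the largest of these being 5 against 3 dpa in proximal pieces. Rescaling to equal sums gave −0.10 for proximal against medial at 3 dpa, −0.34 for 5 against 3 dpa in distal and −0.28 in proximal pieces, and the median of ratios gave −0.0029 for proximal against medial at 3 dpa. Leaving out 1 sample at a time gave −0.068 to 0.091 for proximal against medial at 3 dpa, −0.12 to 0.016 for distal against medial and −0.021 to 0.16 for distal against proximal at 5 dpa, and −0.070 to 0.15 for 5 against 3 dpa in distal pieces, where 3, 1, 2 and 2 of the fits turned. The medial change with day stayed between 0.25 and 0.37, with limma adjusted p between 0.34 and 0.86. Rescaling to equal sums also moved the calls over all genes in distal against medial at 5 dpa, from 733 higher and 440 lower to 358 and 538.

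The replicate numbers do not establish a pairing over the experiment: 13 of 17 same-numbered pairs of samples had deviations correlated above 0.1 (−0.04 to 0.40), against 5 of 50 other pairs, and 16 of 19 samples correlated best with a sample of their own number. At 3 dpa every same-numbered pair was above 0.1 in distal against proximal (from 0.17) and proximal against medial (from 0.18), but not in distal against medial (from 0.017). With the replicate number as a block, distal against medial gave 0.23 at 3 dpa (limma adjusted p = 0.26) and −0.04 at 5 dpa, distal against proximal 0.17 (0.72) and proximal against medial 0.06 (0.90) at 3 dpa, and no call changed. The block could not be fitted between days.

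Log2 ratios of the time course to the control kept their sign under each alternative. Rescaling to equal sums gave 2.10 at 48 hpa, 2.40 at 72 hpa, 0.77 at stage 3, 2.48 at stage 5, 2.56 at 50% D and 2.92 at 50% P. The median of ratios gave 0.96 at 48 hpa, 0.95 at 72 hpa, 1.40 at stage 4, 1.47 at stage 5 and 1.70 at 50% D. A pseudocount of 0.1 gave 1.33, 1.36, 1.85, 1.95 and 2.21 for these samples and 1.75 at 50% P. Of the 5 genes most like Tyy1, 0 in explants and 3 in the time course were among the first 5 after rescaling. One sample per stage and unknown depth limit what the time course can show. Calls by adjusted p alone, an alternative added after seeing the data, changed nothing for Tyy1.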
